A study of Mus musculus with 6 samples.

Results

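Lysyl oxidases, matrix metalloproteases and the tissue inhibitors of metalloproteases were followed in brown fat of Ucp1 knockout and wildtype mice. These 10 genes (Lox, Loxl1, Loxl2, Loxl3, Mmp2, Mmp14, Mmp19, Timp1, Timp2 and Timp3) were taken by symbol out of 29072 genes in the deposited table, and each had at least 1 transcript row. The tissue was interscapular brown adipose tissue, the heat-producing depot between the shoulder blades. The knockout group was 3 libraries of genotype UCP1(-/-) and the wildtype group was 3 libraries, all from the C57BL/6J strain. The labels give no age, sex, housing temperature or targeted allele, and they do not say whether replicates are separate animals. The p-values set the difference between the groups against the spread of these libraries within a group, and that spread may be technical only. Values are RPKM, read counts scaled to transcript length and to the depth of the library. Each library held an estimated 15700000 to 18000000 reads.

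Lysyl oxidases are secreted copper enzymes that oxidise lysine side chains of collagen and elastin, which then form covalent cross-links. Matrix metalloproteases are zinc enzymes that cut collagens, gelatins and other matrix proteins, and the tissue inhibitors (TIMPs) bind and block their active sites. In adipose tissue these genes are mostly made by stromal cells, although adipocytes also express some of them, and they shape the matrix that surrounds each fat cell. A dissected depot holds several cell types, and in bulk RNA a lower or higher number of cells of a type cannot be told apart from less or more RNA per cell.

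Ucp1, the uncoupling protein removed in the knockout, checks the labels. It stood at 375, 389 and 372 RPKM in the knockout libraries and at 3096, 1714 and 3151 RPKM in the wildtype libraries, a log2 change of -2.75 (SE 0.21, limma adjusted p = 0.000404). Ucp1 was thus lower in every knockout library, although reads were left in the knockout, and the deleted stretch is not given in the labels. Wildtype replicate 2 held the least Ucp1 of the wildtype group. Log2 changes here are knockout minus wildtype on the log2(RPKM + 1) scale, which understates changes of genes with low values, and a gene was said to rise or fall when its limma p, adjusted over all 11562 tested genes by the Benjamini-Hochberg method, was under 0.05. Genes were tested when a group mean reached 1 RPKM.

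Of the 10 genes, 9 were tested, 2 rose in knockout brown fat (Loxl1 and Mmp14), 0 fell and 7 did not pass by limma. Without adjustment, 4 of the 9 reached p under 0.05, as did 23.5% of all tested genes. Among all tested genes 7.67% passed in either direction, 6.95% as higher and 0.718% as lower in knockout. Timp1 stayed below the level required for testing. The median log2 change of the 9 genes was 0.22, against 0.08 over all tested genes. Knockout and wildtype values did not overlap for 5 of the 9 genes, 4 of them higher in knockout (Lox, Loxl1, Loxl3 and Mmp14) and 1 lower (Mmp19), although the direction of Loxl3 flipped after quantile normalization. Over all tested genes 29.3% did not overlap, 24.2% with all knockout libraries above and 5.11% with all below. The plot of levels by library shows these groups.

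**Figure D1:**
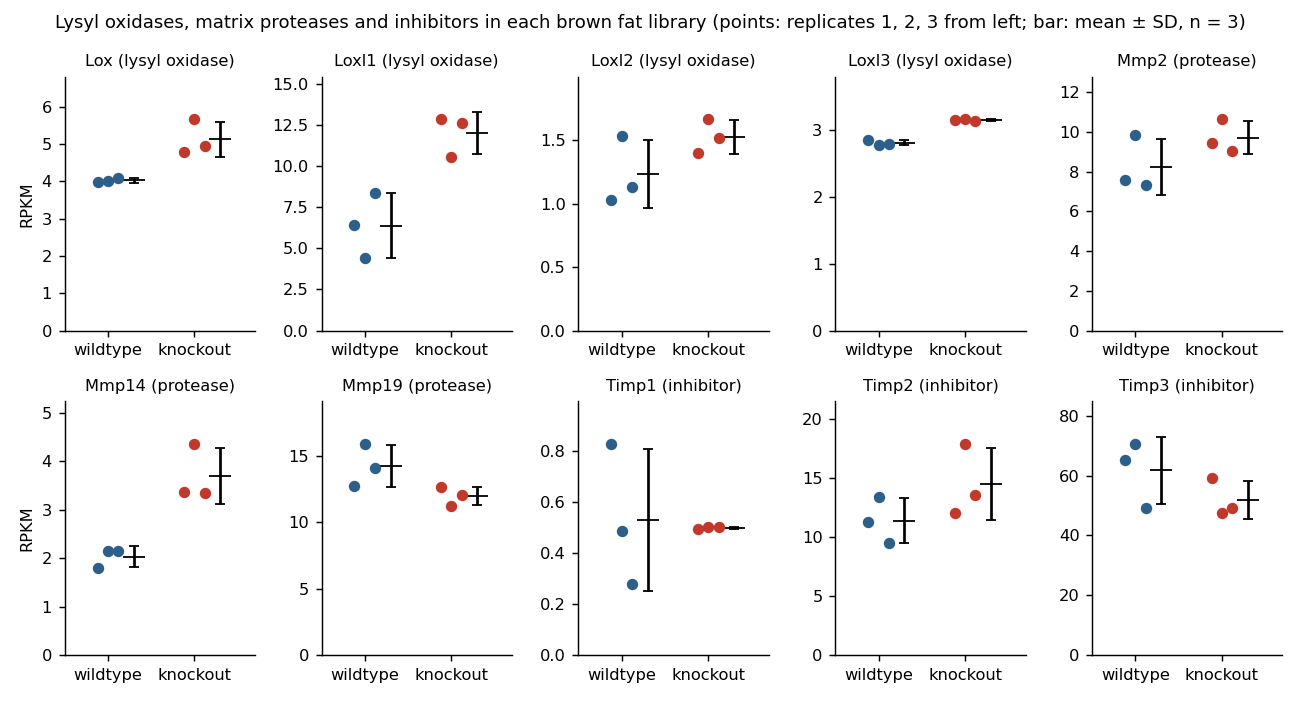
RPKM of each of the 10 genes in wildtype (blue) and knockout (red) libraries, with points for replicates 1 to 3 and a black bar for mean ± SD (n = 3). Loxl1 and Mmp14 lie higher in every knockout library, Mmp19 lies lower in every knockout library, and Timp1 stays under 1 RPKM throughout.

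By level, Timp3 was the most abundant of the 10 genes in both groups. Mmp19 and Timp2 came next, and their ranges overlapped in both groups. Loxl1 and Mmp2 followed, also with overlapping ranges. Lox, Loxl3, Mmp14, Loxl2 and Timp1 came after them in that order of the mean over all libraries. The order differed between the groups: in knockout every Mmp14 value lay above every Loxl3 value, and in wildtype every Loxl3 value lay above every Mmp14 value. Timp2 and Loxl1 overlapped in the knockout libraries and lay apart in the wildtype libraries. In knockout Loxl1 also stood level with Mmp19, whereas in wildtype its mean lay below those of Mmp19, Timp2 and Mmp2. These are comparisons of RPKM, which is scaled to transcript length.

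Loxl1, the lysyl oxidase best known for elastic fibre upkeep, was the lysyl oxidase with the highest level and the largest difference. It stood at 12.8, 10.5 and 12.6 RPKM in the knockout libraries and at 6.40, 4.39 and 8.37 RPKM in the wildtype libraries. Every knockout library lay above every wildtype library, and wildtype replicate 3 came closest to the knockout group. The means were 12 ± 1.28 RPKM in knockout against 6.39 ± 1.99 in wildtype (mean ± SD over 3 libraries per group), a 1.88-fold difference. Loxl1 rose by a log2 change of 0.85 (SE 0.18, 95% interval 0.43 to 1.26, limma adjusted p = 0.0271). The other Loxl1 row in the table also stood higher in knockout, with a log2 difference of 0.85, but rows of a gene share reads. The call on Loxl1 was lost in 7 of 16 alternative settings, in which the limma adjusted p lay between 0.0513 and 0.1, while its log2 change ranged from 0.64 to 1.04 over all 16. It was lost after either rescaling of the libraries (adjusted p = 0.0513 and 0.0547), and when genes of any level entered the test (0.0709). It was also lost without knockout replicate 1 (0.1), knockout replicate 2 (0.0613) or knockout replicate 3 (0.0873), and without wildtype replicate 1 (0.0743).

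Lox, the founding member of the family and a cross-linker of fibrillar collagen, showed a smaller difference. Its level was 4.78, 5.66 and 4.94 RPKM in the knockout libraries and 3.97, 3.999 and 4.10 RPKM in the wildtype libraries. The groups did not overlap, and the wildtype libraries lay close together. The log2 difference of 0.28 (SE 0.08, 95% interval 0.10 to 0.47) did not pass (limma adjusted p = 0.0778), nor did it in any of 16 alternatives. All 9 other Lox rows stood higher in knockout, 7 of them without overlap, by 0.26 to 0.30 on the log2 scale, but rows of a gene share reads.

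Loxl3, a family member with scavenger receptor domains, gave 3.15, 3.16 and 3.14 RPKM in knockout against 2.86, 2.78 and 2.80 in wildtype. The spread within each group was small and the groups did not overlap, but limma draws each gene's spread toward that of genes of like level, and the log2 difference of 0.12 (SE 0.07) did not pass (limma adjusted p = 0.356). After quantile normalization the log2 difference of Loxl3 was -0.01. Some exons of Loxl3 overlap those of Htra2 on the opposite strand in the GENCODE annotation of GRCm38, and Htra2 stood at 12.8 to 16.3 RPKM, so reads of the pair cannot be told apart if strand was not used. Loxl2, which acts on the collagen IV network of basement membranes, stood at 1.40, 1.66 and 1.52 RPKM in knockout against 1.03, 1.53 and 1.13 in wildtype. These groups overlapped (log2 difference 0.19, SE 0.11, limma adjusted p = 0.347). Loxl2 rested on an estimated 51 to 83 reads per library. Loxl4, the remaining family member, was under 0.22 RPKM in every library and was not tested.

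Loxl1 made up 57.9%, 50.1% and 56.8% of the summed RPKM of Lox, Loxl1, Loxl2 and Loxl3 in the knockout libraries. Its share was 44.9%, 34.6% and 51.1% in the wildtype libraries. The share in wildtype replicate 3 lay inside the knockout range, so the groups overlapped (two-sided exact permutation p = 0.2, adjusted p = 0.4 over 4 ratios, with 0.1 the smallest p that 3 against 3 libraries allow).

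**Figure D2:**
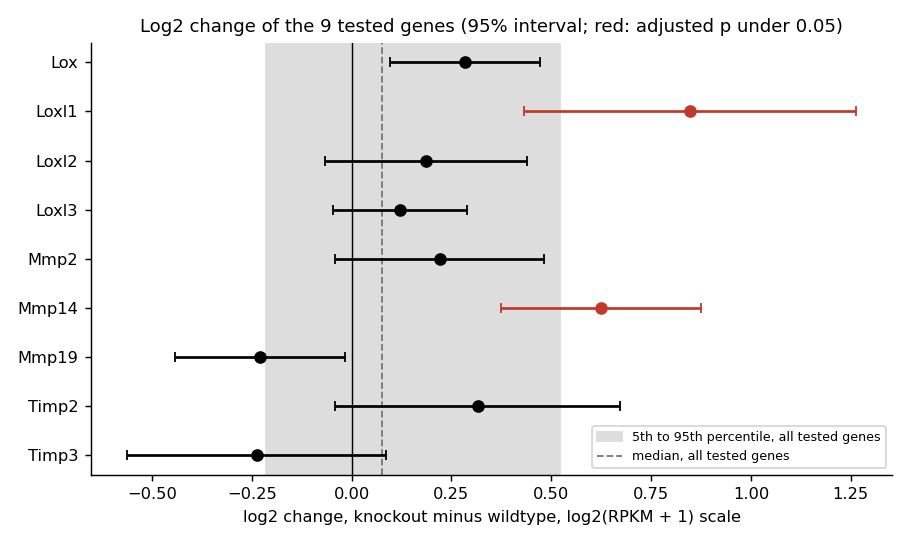
Log2 change with its 95% interval for the 9 tested genes, in red where the adjusted p is under 0.05, beside the 5th to 95th percentile (-0.21 to 0.52, grey) and the median (0.08, dashed) of all tested genes. Loxl1 and Mmp14 lie to the right of the grey band, and Mmp19 and Timp3 lie just beyond its left edge.

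Mmp14, a membrane-anchored collagenase on the cell surface that also activates the MMP2 precursor, was the other gene that rose. It stood at 3.37, 4.37 and 3.35 RPKM in the knockout libraries and at 1.79, 2.16 and 2.16 RPKM in the wildtype libraries. All knockout libraries lay above all wildtype libraries, with knockout replicate 2 the highest. The means were 3.70 ± 0.582 RPKM and 2.03 ± 0.211 RPKM (mean ± SD over 3 libraries per group), a 1.82-fold difference. Mmp14 rose by a log2 change of 0.62 (SE 0.11, 95% interval 0.38 to 0.87, limma adjusted p = 0.011). All 4 other Mmp14 rows stood higher in knockout without overlap, by 0.38 to 0.63 on the log2 scale, but rows of a gene share reads. The call on Mmp14 was kept in each of the 15 alternatives that tested it, with limma adjusted p from 0.0103 to 0.0443 and log2 changes from 0.49 to 0.82. It rested on an estimated 76 to 178 reads per library.

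RefSeq promoter sequences (build GRCm38.p6) were available for 4 of the 10 genes. The 250 bases before the start of Mmp14, the protease that rose, are shown beside those of Timp1, the inhibitor that stayed near the floor of the measurement. Capitals mark matches on either strand to the GC box GGGCGG, the CCAAT box CCAAT, the TATA box TATAAA and the AP-1 element TGANTCA, where N is any base. The Mmp14 window is chr14:54431348-54431597 and that of Timp1 is chrX:20869916-20870165, both on the plus strand.
Mmp14: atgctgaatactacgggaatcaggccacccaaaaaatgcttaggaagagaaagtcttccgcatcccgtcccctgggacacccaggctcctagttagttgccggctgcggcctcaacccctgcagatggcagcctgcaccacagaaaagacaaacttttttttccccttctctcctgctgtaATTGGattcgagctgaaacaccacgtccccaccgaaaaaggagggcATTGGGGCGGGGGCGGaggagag
Timp1: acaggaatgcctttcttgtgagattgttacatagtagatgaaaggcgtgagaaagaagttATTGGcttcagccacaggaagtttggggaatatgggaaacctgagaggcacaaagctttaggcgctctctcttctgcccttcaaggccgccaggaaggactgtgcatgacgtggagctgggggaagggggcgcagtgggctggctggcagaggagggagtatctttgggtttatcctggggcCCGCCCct
The Mmp14 window holds 2 GC boxes, at 19 to 14 and 13 to 8 bases before the start, and 2 CCAAT boxes in reverse orientation, at 69 to 65 and 23 to 19 bases before the start. The CCAAT box nearer the start shares a base with the first GC box. Timp1 has 1 CCAAT box, at 190 to 186 bases, and 1 GC box, at 8 to 3 bases before the start. In both windows the TATA box and the AP-1 element were at 0 matches. Among 27018 promoter windows of the same length, 32.7% held a GC box, 34.2% a CCAAT box, 12.9% a TATA box and 6.9% the AP-1 element. The GC content was 55.2% for Mmp14 and 54.4% for Timp1, with a median of 52.0% over all windows. A match is a description of letters and not a measured binding site.

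Mmp2, a gelatinase that cuts collagen IV and denatured collagen, gave 9.42, 10.6 and 9.05 RPKM in knockout against 7.57, 9.82 and 7.30 in wildtype. Wildtype replicate 2 lay within the knockout range, so the groups overlapped. The log2 difference of 0.22 (SE 0.11, 95% interval -0.04 to 0.48) did not pass (limma adjusted p = 0.288). Without wildtype replicate 2 the difference was 0.34 (limma adjusted p = 0.0659), which also did not pass. Mmp2 is the only gene of the 10 on the chromosome of Ucp1, and in GRCm38 it lies within 10 Mb of it.

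Mmp19, a secreted protease of basement membrane proteins, was the most abundant of the 3 proteases. It stood at 12.7, 11.3 and 12.04 RPKM in knockout against 12.7, 15.9 and 14.1 in wildtype. Every knockout library lay below every wildtype library, although knockout replicate 1 and wildtype replicate 1 nearly met. The log2 difference of -0.23 (SE 0.09, 95% interval -0.44 to -0.02) did not pass (limma adjusted p = 0.185), nor did it in any of 16 alternatives. All 8 other Mmp19 rows stood lower in knockout, but only 3 of them kept the groups from overlapping. Exons of Mmp19 overlap those of Tmem198b on the opposite strand in GENCODE, and Tmem198b stood at 7.17 to 8.02 RPKM in knockout against 7.73 to 9.79 in wildtype. Reads of this pair cannot be told apart if strand was not used.

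Timp3, a TIMP that is held in the matrix and also blocks ADAM proteases, gave 59.1, 47.3 and 49.1 RPKM in knockout against 65.4, 70.6 and 49.1 in wildtype. Wildtype replicate 3 lay inside the knockout range and the other wildtype libraries above it. The log2 difference of -0.24 (SE 0.14, 95% interval -0.56 to 0.09) did not pass (limma adjusted p = 0.348). Without wildtype replicate 3 it was -0.39 (limma adjusted p = 0.0818). Of the 7 other Timp3 rows, 6 stood lower in knockout, 2 of them without overlap. The 1 higher row held at most 0.104 RPKM in any library.

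Timp2, the TIMP that binds MMP14 at the cell surface and takes part in the activation of MMP2, gave 12.03, 17.9 and 13.5 RPKM in knockout against 11.3, 13.4 and 9.53 in wildtype. Knockout replicate 2 stood above the rest, and the groups overlapped. The log2 difference of 0.32 (SE 0.16, 95% interval -0.04 to 0.67) did not pass (limma adjusted p = 0.264). Without knockout replicate 2 the difference was 0.16 (limma adjusted p = 0.599). Timp1, a soluble TIMP induced in many forms of tissue injury, stood at 0.493, 0.500 and 0.500 RPKM in knockout against 0.828, 0.486 and 0.277 in wildtype. The wildtype libraries spanned the knockout values, and each value rested on an estimated 4 to 12 reads, so a difference was not detectable at this depth. Timp4, the remaining TIMP and one enriched in fat and muscle, stood at 39.1, 37.4 and 36.6 RPKM in knockout against 43.2, 39.4 and 28.4 in wildtype. Its groups overlapped (log2 difference 0.05, limma adjusted p = 0.883), and its direction flipped under median-of-ratios scaling and without wildtype replicate 3.

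The balance of Mmp14 to Timp2 was examined within each library, since the proteins form a complex. The ratio of their RPKM was 0.280, 0.244 and 0.248 in the knockout libraries and 0.159, 0.161 and 0.226 in the wildtype libraries. The groups did not overlap, with wildtype replicate 3 nearest to the knockout group (two-sided exact permutation p = 0.1, the smallest possible, adjusted p = 0.4 over 4 ratios). The ratio of Mmp2 to Timp2 was 0.593 to 0.783 in knockout and 0.671 to 0.766 in wildtype and overlapped (exact permutation p = 0.6, adjusted p = 0.6). The summed RPKM of Mmp2, Mmp14 and Mmp19 over that of Timp1, Timp2 and Timp3 was 0.356 to 0.400 in knockout and 0.285 to 0.400 in wildtype, also with overlap (exact permutation p = 0.4, adjusted p = 0.533).

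**Figure D3:**
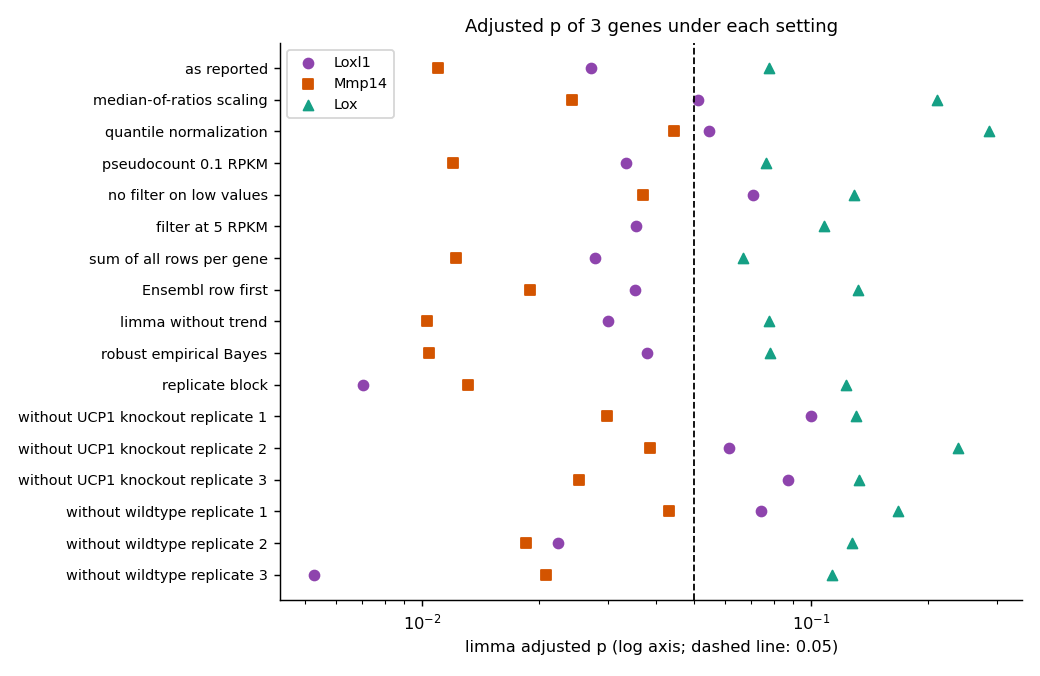
Limma adjusted p of Loxl1, Mmp14 and Lox (log axis) as reported and under 16 alternative settings, with a dashed line at 0.05. Mmp14 stays left of the line wherever it was tested, Loxl1 crosses it in 7 settings, and Lox stays right of it in all of them.

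Among marker lists of other cells in the dissected depot, only that of skeletal muscle passed in full. Over all tested genes 7.67% passed, a share to set beside the counts below. All 20 skeletal muscle markers rose, and their summed level was 1873 to 2124 RPKM in knockout against 83.9 to 329 in wildtype. Acta1, the actin of skeletal muscle fibres, stood at 342 to 425 RPKM in knockout against 8.54 to 57.0 in wildtype. Within the wildtype group, replicate 3 had the least muscle RNA and the most Loxl1 (8.37 RPKM), and replicate 2 had the most muscle RNA and the least Loxl1 (4.39 RPKM). Mmp14 did not follow that order, with 1.79, 2.16 and 2.16 RPKM in wildtype replicates 1, 2 and 3. Between the groups, muscle RNA, Loxl1 and Mmp14 were all higher in knockout. Of 11 tested macrophage markers 1 rose, the pore protein Mpeg1, and the summed level was 79.1 to 109 RPKM in knockout against 49.8 to 78.3 in wildtype. The macrophage count was 2 without knockout replicate 1, 4 without wildtype replicate 2 and 0 of 4 tested with the filter at 5 RPKM. Lyz2, the lysozyme of macrophages, stood at 28.7 ± 2.66 and 18.2 ± 4.76 RPKM. Of 13 tested fibroblast markers, which share collagen genes with the lists described further on, 2 rose, Thy1 and Col3a1, with a summed level of 253 to 299.7 RPKM in knockout against 196 to 259 in wildtype. Without wildtype replicate 2, 6 fibroblast markers passed, and without knockout replicates 2 or 3 or wildtype replicates 1 or 3, 1 passed. Dcn, the fibroblast marker with the highest level, stood at 73.3 ± 3.43 RPKM in knockout against 67.7 ± 11.4 in wildtype (mean ± SD over 3 libraries per group). No marker in the muscle, macrophage or fibroblast lists was at 0 in all libraries. The part of muscle, macrophage and fibroblast RNA in the differences of Loxl1 and Mmp14 was not tested.

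By limma, 0 of 10 endothelial markers passed, or 1 without knockout replicate 1 (summed level 199 to 221 RPKM in knockout against 193 to 216 in wildtype), and Cdh5, their cadherin, stood at 44.5 ± 2.89 and 42.1 ± 3.21 RPKM (mean ± SD over 3 libraries per group). Likewise 0 of 10 smooth muscle and pericyte markers passed, with a list median of -0.10 against 0.08 over all tested genes. Their summed level was 124.2 to 135.8 RPKM in knockout against 136.4 to 154.1 RPKM in wildtype, without overlap. Rgs5 stood at 64.5 ± 2.19 and 69.1 ± 4.66 RPKM. The counts were also 0 of 5 for Schwann cell markers, led by Pmp22, 0 of 4 for red blood cell genes (led by Hbb-bs, with a list median of -0.35 and a summed level of 302 to 414 RPKM in knockout against 285 to 692 RPKM in wildtype), 0 of 1 for tendon markers (Tnc, with a list sum of 3.20 to 3.87 RPKM in knockout against 1.89 to 2.76 RPKM in wildtype) and 0 of 1 for mesothelial markers (Lrrn4), of which Wt1 was listed at 0 in all libraries. Neutrophil and lymphocyte markers, led by S100a8 and Cd3e, were too low to test, with at most 1.115 and 0.555 RPKM in any library. Of 10 brown adipocyte markers, Elovl3 rose, Ucp1 and Prdm16 fell and 7 did not pass. That count of 3 dropped to 1, with 0 higher and 1 lower, without knockout replicate 1, 2 or 3, with genes of any level tested and with the filter at 5 RPKM, and it was 2 without wildtype replicate 1 or 3. Under either rescaling and the robust fit 0 passed as higher. The most abundant, Fabp4, stood at 8728 ± 471 and 8384 ± 666 RPKM. Mpeg1, Thy1, Elovl3 and Prdm16 were named after their values were seen.

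**Figure D4:**
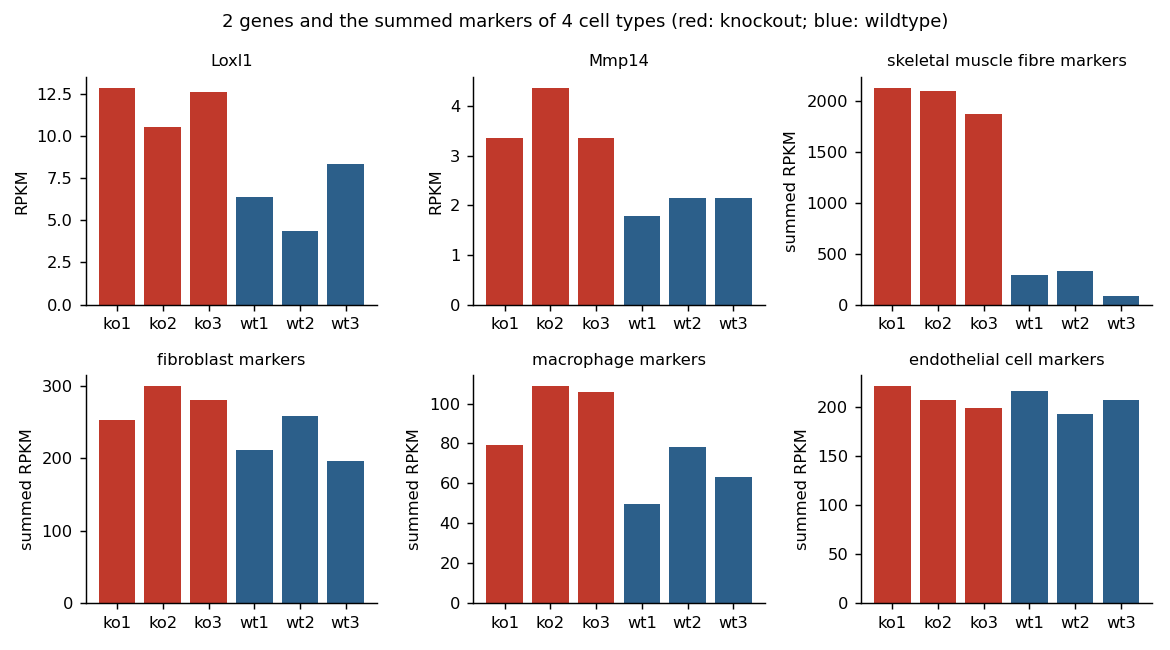
Bars show Loxl1 and Mmp14 (RPKM) and the summed RPKM of skeletal muscle, fibroblast, macrophage and endothelial markers in each library, red for knockout (ko1 to ko3) and blue for wildtype (wt1 to wt3), each axis starting at 0. Muscle markers, Loxl1 and Mmp14 are higher in every knockout library. Among wildtype libraries, muscle markers are lowest and Loxl1 is highest in wt3, while Mmp14 is lowest in wt1.

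Other genes of matrix turnover were read from 12 lists. Their 96 tested genes gave 6 that rose, 1 that fell and 89 that did not pass, or 7.29% called, against 7.67% of all tested genes. Of 20 other matrix metalloproteases, 5 were tested and 1 rose. This was Mmp28, a secreted protease also called epilysin, which stood at 7.81, 8.63 and 7.14 RPKM in knockout against 2.56, 4.05 and 2.17 in wildtype. The Mmp28 groups lay well apart, and it rose by a log2 change of 1.2 (SE 0.16, limma adjusted p = 0.00297), a call kept in all 16 alternatives. Without wildtype replicate 2, 2 of these other metalloproteases passed. Mmp3, a stromelysin outside the rule for named genes and chosen after its values were seen, stood at 1.14, 1.55 and 1.48 RPKM in knockout against 0.748, 0.958 and 0.478 in wildtype without passing (limma adjusted p = 0.0647). The 15 untested metalloproteases held at most 1.21 RPKM in any library, and 5 of them were listed at 0 throughout.

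Among ADAMTS proteases, which cut proteoglycans and procollagens, 6 of 19 were tested and Adamts5, an aggrecanase, rose. It stood at 1.80, 2.21 and 1.95 RPKM in knockout against 1.07, 1.14 and 0.972 in wildtype, a log2 change of 0.53 (SE 0.09, limma adjusted p = 0.0114). The groups did not overlap, and the call was kept in 13 of 15 alternatives, all but quantile normalization (limma adjusted p = 0.0542) and the fit without knockout replicate 2 (0.0565). Of 6 tested ADAM proteases, Adam19 rose from 0.879 ± 0.183 to 1.55 ± 0.126 RPKM (log2 change 0.44, limma adjusted p = 0.0387), but its call was lost in 9 of 14 alternatives, among them those without any single library other than wildtype replicate 2 (limma adjusted p 0.0878 to 0.12). Of 4 further inhibitors, Timp4 alone was high enough to test.

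In the next lists, of genes that supply or act with these enzymes, no tested gene passed. By limma, 0 of 9 tested activators and plasminogen system genes passed, and Pcsk5, a proprotein convertase, had the smallest p (3.94 ± 0.461 RPKM in knockout against 2.76 ± 0.517 in wildtype, adjusted p = 0.0873). For lysyl oxidase maturation and copper supply 0 of 10 passed. Pcolce, the enhancer of procollagen C-proteinase, came closest there, at 20.9 ± 1.13 and 17.3 ± 0.933 RPKM (limma adjusted p = 0.0857). Of 11 tested collagen chaperone and hydroxylase genes 0 passed, with P4ha1, a prolyl hydroxylase subunit, at 5.54 ± 0.624 and 9.83 ± 4.37 RPKM (limma adjusted p = 0.136). Of 12 genes of TGF-beta signalling 0 passed, with Cyr61, a matricellular target, at 6.73 ± 0.573 and 4.90 ± 0.865 RPKM (limma adjusted p = 0.0769). Cyr61 passed in 2 of 16 alternatives, among them the fit without wildtype replicate 1 (limma adjusted p = 0.0278), and Pcsk5, Pcolce and P4ha1 passed in 0.

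Matrix proteins on which the enzymes act, and their partners, gave 4 calls. Of 13 tested fibrillar collagens and small proteoglycans 2 rose and 11 did not pass, with a median log2 change of 0.24. Col3a1, the collagen III chain, rose from 39.2 ± 5.72 to 57.7 ± 7.50 RPKM (log2 change 0.55, limma adjusted p = 0.0353) and Col5a3 from 4.16 ± 0.433 to 6.07 ± 0.758 RPKM (log2 change 0.45, limma adjusted p = 0.0357). Of 12 tested basement membrane genes, Sparc, a collagen-binding glycoprotein, rose from 296.8 ± 7.88 to 370.4 ± 7.35 RPKM (log2 change 0.32, limma adjusted p = 0.0291), with a list median of 0.20. Of 13 tested elastic fibre genes, Ltbp2, a fibrillin-binding protein, fell from 19.5 ± 1.74 to 14.3 ± 1.60 RPKM (log2 change -0.43, limma adjusted p = 0.0406), with a list median of -0.01. Values of these 4 genes did not overlap between the groups. The call was lost in 7 of 16 alternatives for Col3a1, 9 for Col5a3, 9 for Sparc and 8 for Ltbp2, and under median-of-ratios scaling for Col3a1, Col5a3 and Sparc (limma adjusted p = 0.0896, 0.0914 and 0.121). Leaving out knockout replicates 2 or 3 or wildtype replicates 1 or 3 ended the calls on Col3a1 (0.0793 to 0.132) and Col5a3 (0.0745 to 0.124). Sparc was lost without any single library but wildtype replicate 2 (0.0546 to 0.114), and Ltbp2 without any but wildtype replicate 1 (0.0801 to 0.106). Without wildtype replicate 2, 4 fibrillar collagen and proteoglycan genes and 2 basement membrane genes passed.

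**Figure D5:**
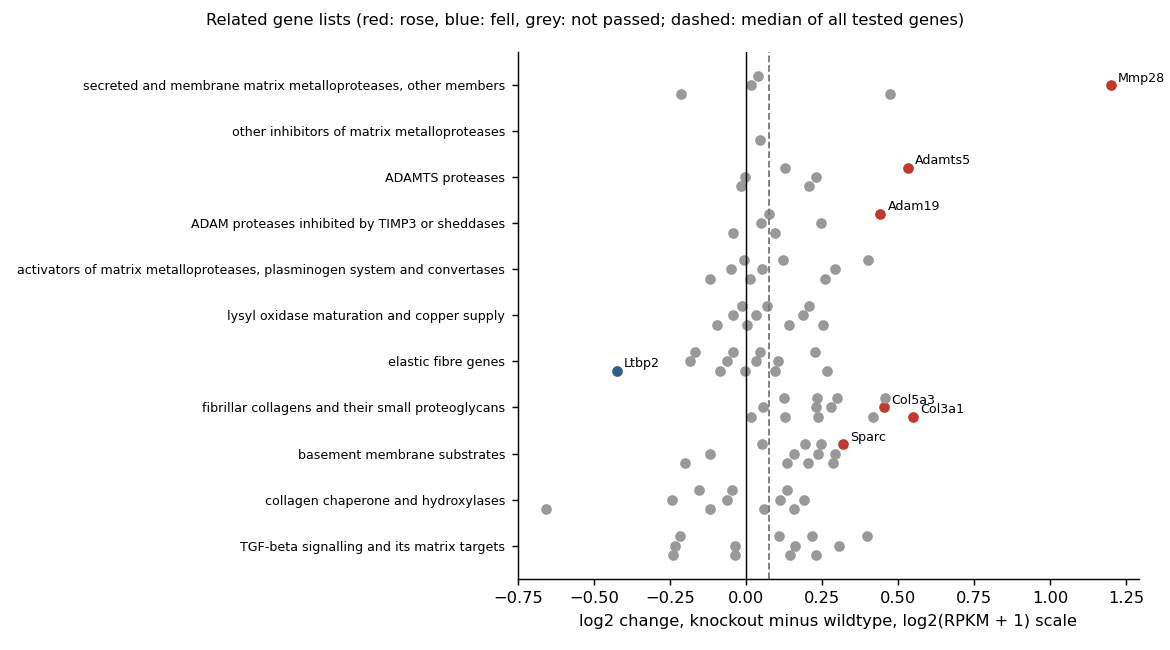
Each point is a tested gene of a related list, placed by its log2 change (knockout minus wildtype), red where it rose, blue where it fell and grey where it did not pass, with a dashed line at the median of all tested genes (0.08). Mmp28 stands furthest to the right at 1.2, and Ltbp2 is the only gene in blue, at -0.43.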

How the data were processed

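Total RNA from 6 libraries, 3 per genotype, was made into Illumina TruSeq libraries, per the labels. CASAVA and bcl2fastq appear in the submitters' processing notes. Not given in the sources used here were aligner, build, annotation and strandedness. For 168326 transcript rows the authors deposited RPKM, written with decimal commas and no unit in the header. That unit rests on 46002 Ensembl transcripts of known length, for which 95.9% to 96.2% of low products of value and length were whole multiples of a step (tolerance 0.1 reads). These steps gave the depth of each library, and estimated reads use them with GENCODE M21 lengths.

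Rows with no gene identifier (13.8%) were left out. For each gene the row used was a RefSeq NM or NR row where present, and among those the one with the highest mean. Limma 3.58.1 with an intensity trend (R 4.3.3) was run on log2(RPKM + 1), two-sided, with genotype as the only factor. On simulated data of 11562 genes at the wildtype means, 91% of log2 changes of 0.58 and 100% of changes of 1 and of 2 were recovered. Of the calls, 7.6% were unchanged genes. The simulation gave all genes the same spread, transcript length and depth. Changes went in either direction at random and were placed only in genes above a set wildtype level. These shares are therefore not the power for the genes followed here, of which some are lower or more variable. The genes followed, the 12 gene lists and the 12 marker lists were chosen with earlier results of these data known. The naming rule takes the 10 genes, Ucp1, up to 4 called genes per list (or that with the smallest p) and the highest marker of each marker list. The alternatives changed scaling, pseudocount, filter, row choice, variance model, replicate block and libraries. At most 2 genes above 0 held identical values in any library pair.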

Additional observations from a re-analysis of the deposited data

How the results depend on the processing

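Alternatives, 16 in all, included rescaling by median of ratios or quantiles, a pseudocount of 0.1 and no filter or a filter at 5 RPKM. They also covered summed or Ensembl rows, other variance models, the replicate block and leaving out each library. Where a gene had no Ensembl row, as for Loxl1 and Mmp14, its row with the highest mean was used instead. Over all genes 887 passed, with 580 after quantile normalization and 454 with the filter at 5 RPKM, and 455 to 849 with a library left out. The 887 calls were 90.6% higher in knockout, which fell to 73% of 647 calls after median-of-ratios scaling and to 68.1% after quantile normalization, as the median log2 change of all tested genes moved from 0.08 to -0.02 and -0.03. Of the 10 genes, 2 passed, and 1 passed under median-of-ratios scaling, quantile normalization, no filter and the filter at 5 RPKM, where Mmp14 was not tested. With a library left out the count was 1 or 2, at 1 without knockout replicates 1, 2 or 3 or wildtype replicate 1, in each case because Loxl1 no longer passed. Over the gene lists 7 genes passed, with 3 each under median-of-ratios scaling, quantile normalization, no filter and Ensembl rows, and 1 to 10 with a library left out (lowest without knockout replicate 2). The log2 change of Loxl3 reversed to -0.0122 after quantile normalization. That of Timp4 reversed to -0.0631 after median-of-ratios scaling, and ranged from -0.129 without wildtype replicate 3 to 0.165 without wildtype replicate 1. The knockout minus wildtype difference of Mmp2 over Timp2 reversed to 0.0018 without knockout replicate 2, and reached -0.0932 without knockout replicate 1. With the filter changed, fewer or more genes entered the adjustment, and with a library left out fewer samples did. The cause of the other shifts was not tested.

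In the labels, same-numbered libraries of the groups share only a number. The correlations of their deviations from the group means were 0.092, 0.038 and -0.018, which cannot settle whether they were paired. With the replicate block 775 genes passed over all, 2 of the 10 genes and 6 list genes, and Loxl1 and Mmp14 had limma adjusted p of 0.00706 and 0.0131. The block also brought 4 macrophage markers past the threshold, and Cyr61 (0.0496). Not every library correlated best with its own number. Depth limits Timp1 and Loxl2 most.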
